A study of Mus musculus with 4 samples.

Results

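The genes described here are the proton-coupled oligopeptide transporters Slc15a2, Slc15a3 and Slc15a4, 3 of the 31053 genes counted in hearts of young mice whose mothers had eaten diets of different fibre content. They were taken by gene symbol, and they had been picked because the diet difference of Slc15a2 in endothelial cells was already known from these data. That difference, and every value of these genes in the endothelial contrast, is therefore given as a description with no test. In high_fibre animals the dams had eaten a diet rich in resistant starch during pregnancy and lactation, and in control_diet animals the dams had eaten one low in resistant starch. All offspring were weaned at 3 weeks onto the same standard chow and hearts were taken at 6 weeks. Strain, genotype and sex were not given in the sources used here, nor was the number of animals in a library. Hearts were digested by perfusion with collagenase IV and dispase II, and live, metabolically active, nucleated cells were sorted for droplet RNA sequencing. There were 2 libraries per group, so a p-value reflects only how these libraries vary, and that variation may be technical.

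The Slc15 family moves dipeptides, tripeptides and peptide-like drugs across membranes by coupling them to an inward flow of protons. Slc15a2 encodes PEPT2, a high-affinity carrier of the plasma membrane best known from kidney, brain and lung epithelium. Slc15a3 (PHT2) and Slc15a4 (PHT1) encode peptide and histidine transporters that sit in endosomes and lysosomes of immune cells, where they carry histidine and bacterial peptides such as muramyl dipeptide towards the cytosol. Slc15a4 is needed for signalling by endosomal Toll-like receptors, and it binds the adaptor TASL, which recruits the transcription factor IRF5. Of the other family members, the intestinal carrier gene Slc15a1 and the poorly characterised Slc15a5 had 1 UMI (unique molecular identifier, a tag that marks 1 captured RNA molecule) each in all kept cells.

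In GENCODE M21 on GRCm38 (the mm10 assembly), Slc15a2 (ENSMUSG00000022899) lies on the minus strand at chr16:36750177-36784962, and the processed pseudogene Gm8425 overlaps it on the other strand. Slc15a3 (ENSMUSG00000024737) lies on the plus strand at chr19:10839727-10859362 and is overlapped on the minus strand by Tmem132a and the antisense gene AC132402.1. Slc15a4 (ENSMUSG00000029416) lies on the minus strand at chr5:127595664-127632897 and is overlapped on the plus strand by Glt1d1 and Gm43474. Whether the counting used strand is not given in the sources used here, so reads of overlapping genes may have been shared. The start-site windows of Slc15a2 and Slc15a4 are shown because one gene differed with diet in endothelium and the other hardly moved. Both windows are from RefSeq on GRCm38.p6 and run, on the gene's own strand, from 250 bases before to 50 bases after the start, at chr16:36784913-36785212 for Slc15a2 and chr5:127617343-127617642 for Slc15a4. By GENCODE the Slc15a4 gene starts further upstream, so its RefSeq window lies inside the GENCODE gene. Slc15a3 was not matched. Capitals mark CG pairs, the sites of DNA methylation in mammals.
Slc15a2: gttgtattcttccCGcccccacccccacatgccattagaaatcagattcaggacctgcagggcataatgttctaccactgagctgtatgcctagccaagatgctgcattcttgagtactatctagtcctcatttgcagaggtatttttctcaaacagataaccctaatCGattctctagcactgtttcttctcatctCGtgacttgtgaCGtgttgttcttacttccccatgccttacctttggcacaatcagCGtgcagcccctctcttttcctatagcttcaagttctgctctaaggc
Slc15a4: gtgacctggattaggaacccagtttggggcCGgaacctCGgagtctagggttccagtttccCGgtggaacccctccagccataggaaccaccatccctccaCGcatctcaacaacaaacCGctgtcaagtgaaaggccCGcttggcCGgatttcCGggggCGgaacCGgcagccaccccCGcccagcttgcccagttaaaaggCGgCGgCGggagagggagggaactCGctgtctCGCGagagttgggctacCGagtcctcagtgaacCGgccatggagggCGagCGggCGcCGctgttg
The Slc15a2 window held 5 CG pairs and 46.3% G or C, against a median of 7 pairs and 52.7% over 32851 windows of that length. The Slc15a4 window held 23 CG pairs and 64% G or C, above both medians. Neither window held, on either strand, GAGGAAGT (a PU.1-type core, in 3.20% of windows) or CACGTG (an E-box, in 7.15%).

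The deposited libraries held 27577599 to 69600492 UMIs, and 22346 of 26765 barcodes were kept, with medians of 5769.5 and 6079 UMIs per cell in high_fibre 1 and 2 and 7704 and 7459 in control_diet 1 and 2. Cells were assigned to 6 types by UMI counts of defining markers: Pecam1 and Cdh5 for endothelium, Col1a1 and Dcn for fibroblasts, C1qa for macrophages, Kcnj8 and Vtn for pericytes, Cd79a for B cells and Cd3e for T cells. Such a marker-defined set is called a gate below, and a level is the gene's UMIs per 1e6 UMIs summed over the gate's cells in 1 library (CPM). These are 3′ tag counts, so levels are compared within a gene and not between genes. The endothelial gate held 1568 and 2187 cells in high_fibre 1 and 2, and 1706 and 1192 in control_diet 1 and 2. The smallest gate was that of T cells, down to 34 cells in control_diet 2. Libraries shared cell barcodes: 884 barcode names occurred in more than 1 library, 450 of them in all 4. For example, 737 of the barcodes of high_fibre 1 were also in control_diet 2, with a median of 653 UMIs in high_fibre 1 and 17913 in control_diet 2. In all, 2035 kept cells (9.11%) carried a shared barcode without being at least 5 times deeper than every copy, and they held 1.10% of the UMIs. Levels are given with and without them where a result rests on them.

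Slc15a2 was the member whose level differed most with the maternal diet in endothelium. In endothelium it stood at 0.733 and 0.995 CPM in high_fibre 1 and 2, against 10.3 and 8.46 CPM in control_diet 1 and 2. The high_fibre libraries lay far below the control_diet libraries, with means of 0.864 ± 0.185 and 9.39 ± 1.31 CPM (SD, n = 2 each). These levels came from 6 and 11 UMIs in high_fibre 1 and 2, against 109 and 69 UMIs in control_diet 1 and 2. The fitted log2 fold of high_fibre over control_diet was -3.41 (SE 0.325, edgeR). Of 12002 genes tested there, 2 (0.0167%) had a fold at or below it, Slc15a2 included, and 16.7% of them had this order of libraries, high_fibre below control_diet with no overlap. Since the gene was chosen on this contrast, nothing is read from that rank.

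Most endothelial cells with a Slc15a2 UMI held only 1, so the share of cells with a UMI follows the summed count. A UMI was found in 0.383% (95% exact binomial interval 0.141 to 0.831) and 0.412% (0.188 to 0.780) of endothelial cells in high_fibre 1 and 2. In control_diet 1 and 2 the shares were 5.22% (4.21 to 6.38) and 5.20% (4.01 to 6.62). Such intervals, and the Poisson intervals below, cover counting error only. Endothelial cells with 2 or more Slc15a2 UMIs numbered 0 and 2 in high_fibre 1 and 2, and 18 and 7 in control_diet 1 and 2. After each cell was thinned to 2000 UMIs, so that depth was equal, 2 of 1426 and 6 of 2026 cells kept a UMI in high_fibre 1 and 2, against 25 of 1615 and 22 of 1145 in control_diet 1 and 2. The order of the groups was the same at equal depth. Thinning left out 142 and 161 shallower cells in high_fibre 1 and 2, and 91 and 47 in control_diet 1 and 2. In fibroblasts the shares were 0.203% and 0.164% in high_fibre 1 and 2 and 1.25% and 1.62% in control_diet 1 and 2, at median depths of 10376, 11242.5, 12481 and 15861 UMIs.

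**Figure D1:**
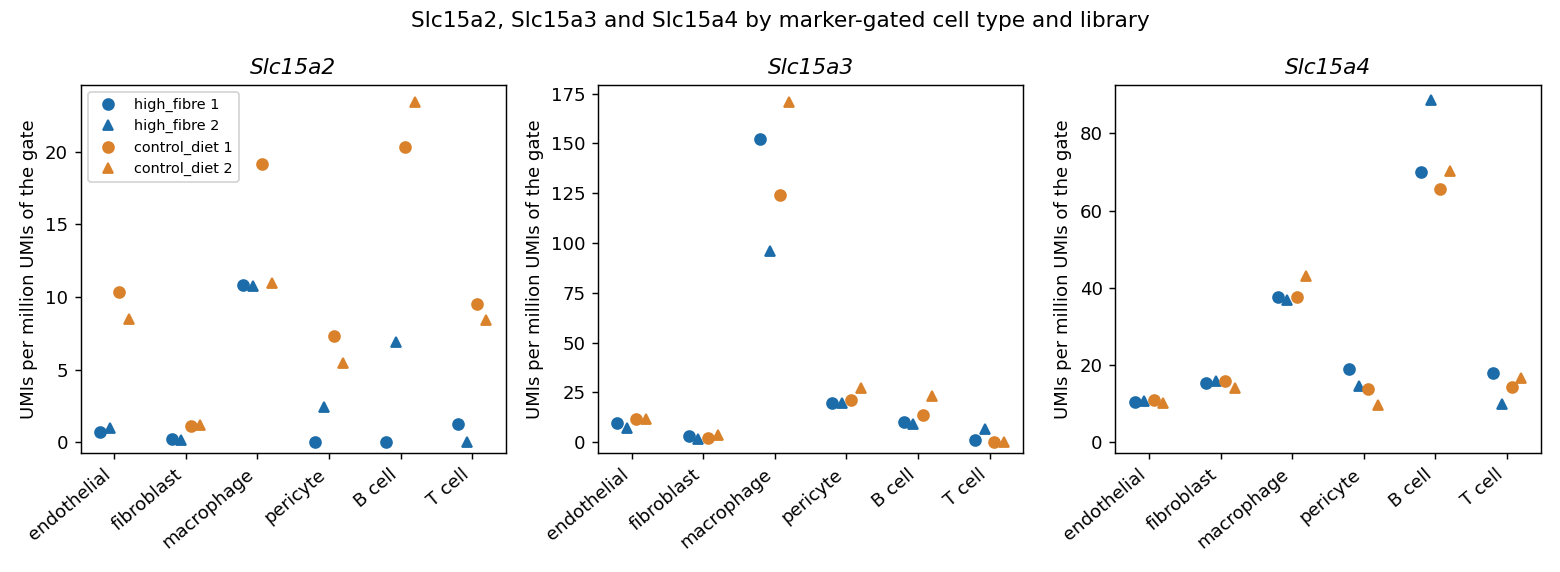
Levels of Slc15a2, Slc15a3 and Slc15a4 in CPM (UMIs per 1e6 UMIs) (y axis, linear, a scale of its own in each panel) by marker-gated cell type (x axis), 1 point per library, high_fibre in blue and control_diet in orange. In the endothelial gate the high_fibre points for Slc15a2 sit at 0.733 and 0.995 and the control_diet points at 10.3 and 8.46, whereas the points for Slc15a4 lie on top of each other; the macrophage points of Slc15a3 spread between 95.8 and 171 with the groups mixed.

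Endothelial values without the shared barcodes were 0.614 and 1.00 CPM in high_fibre 1 and 2, against 10.4 and 8.51 CPM in control_diet 1 and 2. The shared barcodes thus took out 1 Slc15a2 UMI of the endothelial gate, in high_fibre 1, and the fitted log2 fold became -3.50. Macrophage RNA outside macrophages was estimated from C1qb and C1qc, complement subunits that were not used for the gate. Their summed level in endothelium was 0.321% and 0.509% of the macrophage level in high_fibre 1 and 2, and 0.172% and 0.179% in control_diet 1 and 2. At those shares, macrophage RNA would carry 0.0348 and 0.0547 CPM of Slc15a2 into endothelium in high_fibre 1 and 2, and 0.0330 and 0.0196 CPM in control_diet 1 and 2, all below the measured levels. Cells with at least 3 C1qa UMIs were kept out of the endothelial gate, so those shares may be too low. The part of carried RNA was not tested. Erythroid markers, all 5 of them detected, summed to 7636 and 2333 CPM in the endothelial gate of high_fibre 1 and 2, against 1344 and 1623 CPM in control_diet 1 and 2. The 6 macrophage markers, none at 0, summed to 52.1 and 90.3 CPM there in high_fibre 1 and 2, against 28.9 and 30.5 CPM in control_diet 1 and 2. Of the 12002 single genes tested in this gate, 2083 were higher in high_fibre with no overlap and 2008 (16.7%) were lower. Of 20 marker lists summed there, 11 were higher in high_fibre with no overlap and 2 were lower. The higher ones included the capillary, arterial and fibroblast lists, and a neutrophil list at only 1.51 to 9.53 CPM. The lower ones were the interferon endothelial list, at 781 and 725 CPM in high_fibre 1 and 2, against 1018 and 969 CPM in control_diet 1 and 2, and the tip-like list, at 135 and 131 CPM in high_fibre 1 and 2, against 171 and 176 CPM in control_diet 1 and 2. Their part in the Slc15a2 difference was not tested.

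The endothelial difference was seen in capillary, arterial, venous, tip-like and interferon clusters. Clusters of at least 150 cells that fell mainly into the endothelial gate numbered 8, and in 8 of them the high_fibre libraries were the lower ones with no overlap. Across these clusters Slc15a2 ran from 0 to 2.95 CPM in high_fibre libraries and from 2.03 to 16.5 CPM in control_diet libraries. In the larger capillary cluster (c1, led by Aqp1 and Timp4) it stood at 1.02 and 1.40 CPM in high_fibre 1 and 2, against 8.96 and 12.1 CPM in control_diet 1 and 2. The arterial cluster (c10, led by Sema3g and Stmn2) gave 0 and 1 UMI in high_fibre 1 and 2, against 15 and 8 UMIs in control_diet 1 and 2. In the interferon cluster (c13, led by Ifi44 and Ifit1) there were 0 and 2 UMIs in high_fibre 1 and 2, against 14 and 6 in control_diet 1 and 2. These are small counts, and clusters of 1 library share its cells' source. The closest approach of the groups was in cluster c18, whose leading genes Myl2 and Mb are cardiomyocyte transcripts although 94.9% of its cells passed the endothelial gate. It held 1.50 and 1.49 CPM in high_fibre 1 and 2, against 11.2 and 2.03 CPM in control_diet 1 and 2, the last from 1 UMI. Lymphatic endothelium (c26) held too few UMIs to read, with 0 and 0 in high_fibre 1 and 2 and 1 and 1 in control_diet 1 and 2. The 523 cells of the endocardial cluster (c12), most of which passed several gates, gave 0 and 0 UMIs in high_fibre 1 and 2, and 0 and 1 in control_diet 1 and 2.

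**Figure D2:**
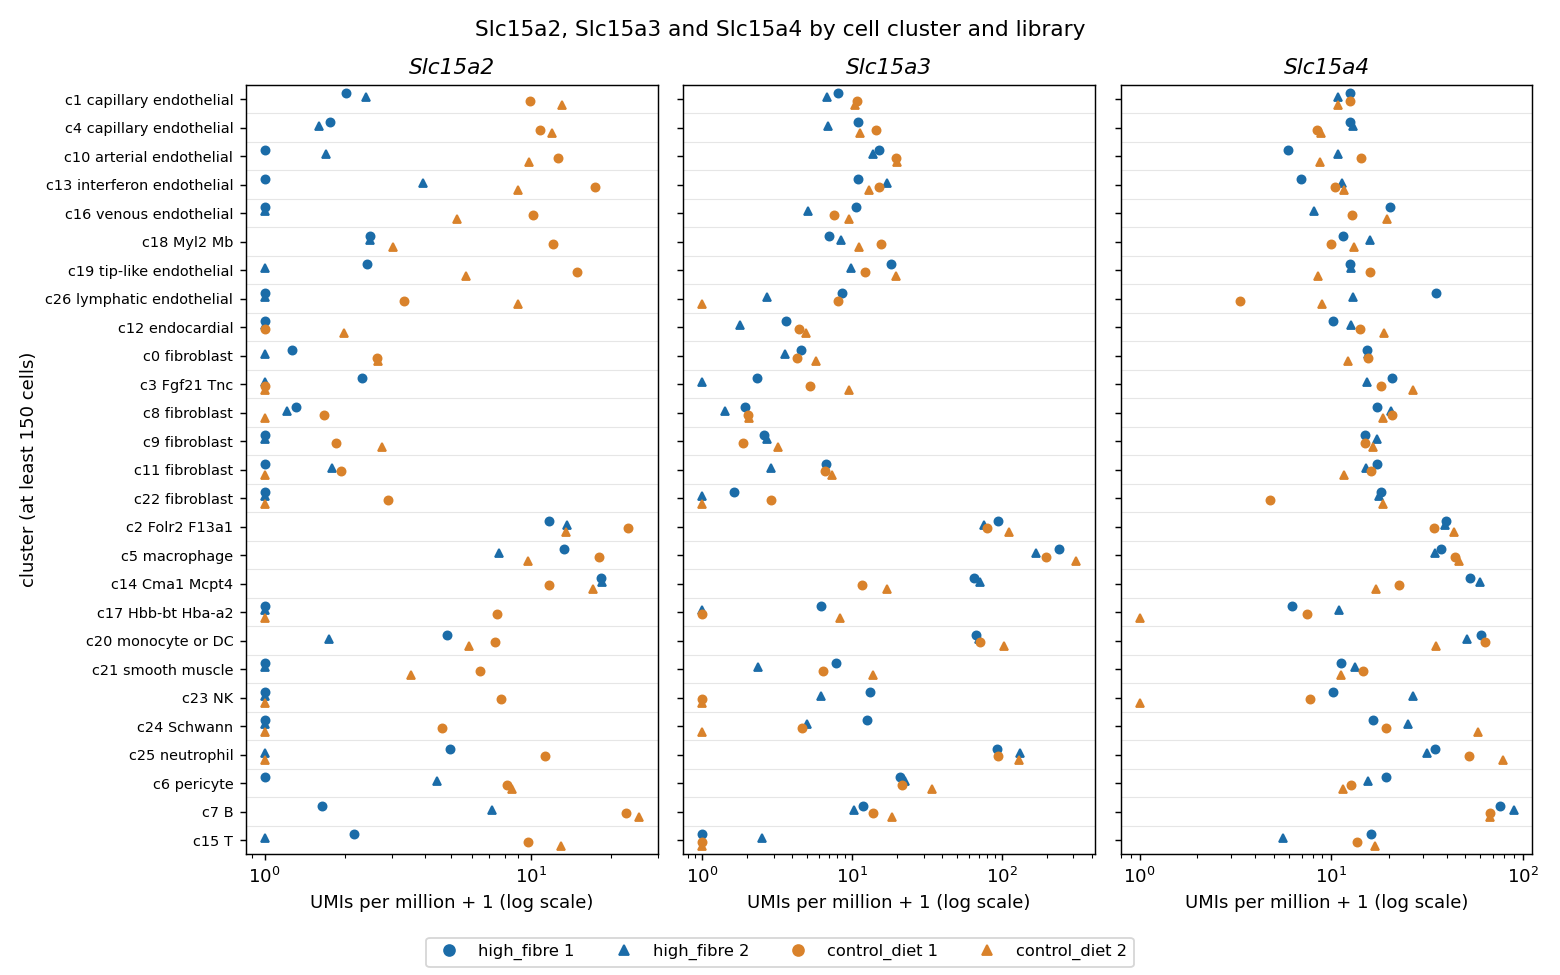
Levels of the 3 genes in each cell cluster of at least 150 cells (rows, named by marker class or, where unnamed, by the leading genes), as CPM plus 1 on a log scale (x axis), 1 point per library, high_fibre in blue and control_diet in orange. For Slc15a2 the blue points lie left of the orange ones in all 8 rows of the endothelial gate, at the top; for Slc15a3 the highest row is c5, and for Slc15a4 it is the B-cell cluster c7.

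B cells had the highest Slc15a2 level of any gate in control_diet hearts. The gene stood at 0 and 6.91 CPM in high_fibre 1 and 2 (0 and 6 UMIs), against 20.3 and 23.4 CPM in control_diet 1 and 2 (22 and 7 UMIs). The high_fibre libraries were the lower ones with no overlap, as for 14.9% of genes tested in B cells, while 1156 of 7174 had the reverse order. The fitted log2 fold of -2.94 (SE 0.771) became -1.60 without high_fibre 1, the library with none. It was -7.35 without high_fibre 2, a fit against no UMI at all that is no bound, and -3.13 with a replicate block. Neutrophil markers, 1 of 5 of them at 0, summed in the B-cell gate to 112 and 238 CPM in high_fibre 1 and 2, against 492 and 1893 CPM in control_diet 1 and 2, and their part was not tested. A count of 0 among the 356 B cells of high_fibre 1 allows up to 1.94 CPM. T cells gave 1 and 0 UMIs in high_fibre 1 and 2, against 8 and 2 in control_diet 1 and 2, and pericytes gave 0 and 4 UMIs in high_fibre 1 and 2, against 8 and 4 in control_diet 1 and 2. In pericytes this was 0 and 2.45 CPM in high_fibre 1 and 2, against 7.31 and 5.46 CPM in control_diet 1 and 2. Fibroblasts held the lowest level in control_diet hearts, with 0.208 and 0.159 CPM in high_fibre 1 and 2, against 1.12 and 1.15 CPM in control_diet 1 and 2, with a fitted log2 fold of -2.60 (SE 0.529). In endothelium, fibroblasts, pericytes, B cells and T cells the high_fibre libraries were thus the lower ones, with no overlap, with and without the shared barcodes. Slc15a2 failed the count filter in pericytes and T cells, so it is not among the genes tested in those gates. T cells held 1.27 and 0 CPM in high_fibre 1 and 2, against 9.49 and 8.37 CPM in control_diet 1 and 2. The level in control_diet 2 came from 2 UMIs and lay below the 12.6 CPM that a count of 0 would allow there. Cells that passed several gates held 2.61 and 2.33 CPM in high_fibre 1 and 2, against 4.52 and 4.04 CPM in control_diet 1 and 2. As a mean over cells the groups overlapped there (log2 0.13), and without the shared barcodes that log2 was -1.32. The share of all tested genes with the high_fibre libraries lower and no overlap was 17.6% in fibroblasts, 17.3% in macrophages, 16% in pericytes and 15.6% in T cells. These gates come from the same 4 libraries and do not count as separate evidence.

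Macrophages carried 56.2% of all 810 Slc15a2 UMIs and showed the smallest difference. The level was 10.8 and 10.8 CPM in high_fibre 1 and 2, against 19.2 and 11.0 CPM in control_diet 1 and 2, so that control_diet 2 was close to both high_fibre libraries. Without the shared barcodes the groups overlapped, at 10.9 and 10.6 CPM in high_fibre 1 and 2, against 19.4 and 10.6 CPM in control_diet 1 and 2. They also overlapped as a mean over cells, at 0.111 and 0.120 UMIs per 10000 in high_fibre 1 and 2, against 0.177 and 0.0905 in control_diet 1 and 2. The fitted log2 fold of -0.53 (SE 0.261) rested on control_diet 1 and was 0.02 without it. Both groups were clear of the floor here, with 113 and 147 UMIs in high_fibre 1 and 2, and 151 and 44 in control_diet 1 and 2. Set within a library, the endothelial level was 0.0677 and 0.0925 of the macrophage level in high_fibre 1 and 2, against 0.538 and 0.772 in control_diet 1 and 2. The same ratio for Slc15a4 was 0.276 and 0.292 in high_fibre 1 and 2, against 0.289 and 0.233 in control_diet 1 and 2, with the groups overlapping. The difference between gates in the diet effect was not tested. In control_diet hearts the order of Slc15a2 levels was B cells, macrophages, endothelium and T cells (which overlapped each other), pericytes and fibroblasts, and in high_fibre hearts macrophages came first and every other gate lay at or below 6.91 CPM.

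Every library held cells of both sexes by Xist and Y-linked UMIs, and the shares were uneven, so Slc15a2 was also read by the sex of the cell. Of endothelial cells with a sex call, 65.5% and 42.5% were male in high_fibre 1 and 2, against 18.1% and 44.6% in control_diet 1 and 2. Female endothelial cells held 0.573 and 1.47 CPM of Slc15a2 in high_fibre 1 and 2, against 12.6 and 8.27 CPM in control_diet 1 and 2. Male endothelial cells held 0.705 and 0.257 CPM in high_fibre 1 and 2, against 3.25 and 7.83 CPM in control_diet 1 and 2. The library levels of the groups did not overlap within either sex, but in male cells the Poisson intervals of high_fibre 1 and control_diet 1 did. Fitted log2 folds were -3.15 (SE 0.471) in female cells and -3.48 (SE 0.718) in male cells, a split chosen after the data were seen. The counts were small: female cells gave 1 and 7 UMIs in high_fibre 1 and 2, against 94 and 29 in control_diet 1 and 2. Male cells gave 3 and 1 UMIs in high_fibre 1 and 2, against 6 and 25 in control_diet 1 and 2.

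Within control_diet 1 the sexes differed from each other. Its female endothelial cells held 94 Slc15a2 UMIs (12.6 CPM, exact 95% Poisson interval 10.2 to 15.4) and its male ones held 6 UMIs (3.25 CPM, 1.19 to 7.08). In its fibroblasts the sexes were close, at 1.17 CPM in female and 0.971 CPM in male cells (18 and 7 UMIs). Its B cells gave 18 UMIs in female and 0 in male cells, and its pericytes 7 in female and 1 in male cells. In the fibroblast, pericyte, B and T gates combined, female cells stood at 2.81 CPM (2.07 to 3.73) and male cells at 1.12 CPM (0.514 to 2.14), which overlap slightly. In its macrophages female cells held 23.1 CPM (19.2 to 27.6) and male cells 9.38 CPM (5.36 to 15.2), which do not overlap. In control_diet 2 the sexes lay close together, at 8.27 CPM (5.54 to 11.9) in female and 7.83 CPM (5.07 to 11.6) in male endothelial cells. Macrophages of control_diet 2 held 9.13 CPM in female and 10.1 CPM in male cells, and those of high_fibre 1 held 7.52 CPM in female and 9.85 CPM in male cells. Macrophages of high_fibre 2 held 10.7 CPM in female and 13.5 CPM in male cells. Cells with no sex call reached 16.4 CPM (11.5 to 22.7) in high_fibre 1, an interval that overlaps that of female macrophages of control_diet 1. Female and male cells of a library come from different animals, so sex and animal cannot be told apart here.

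**Figure D3:**
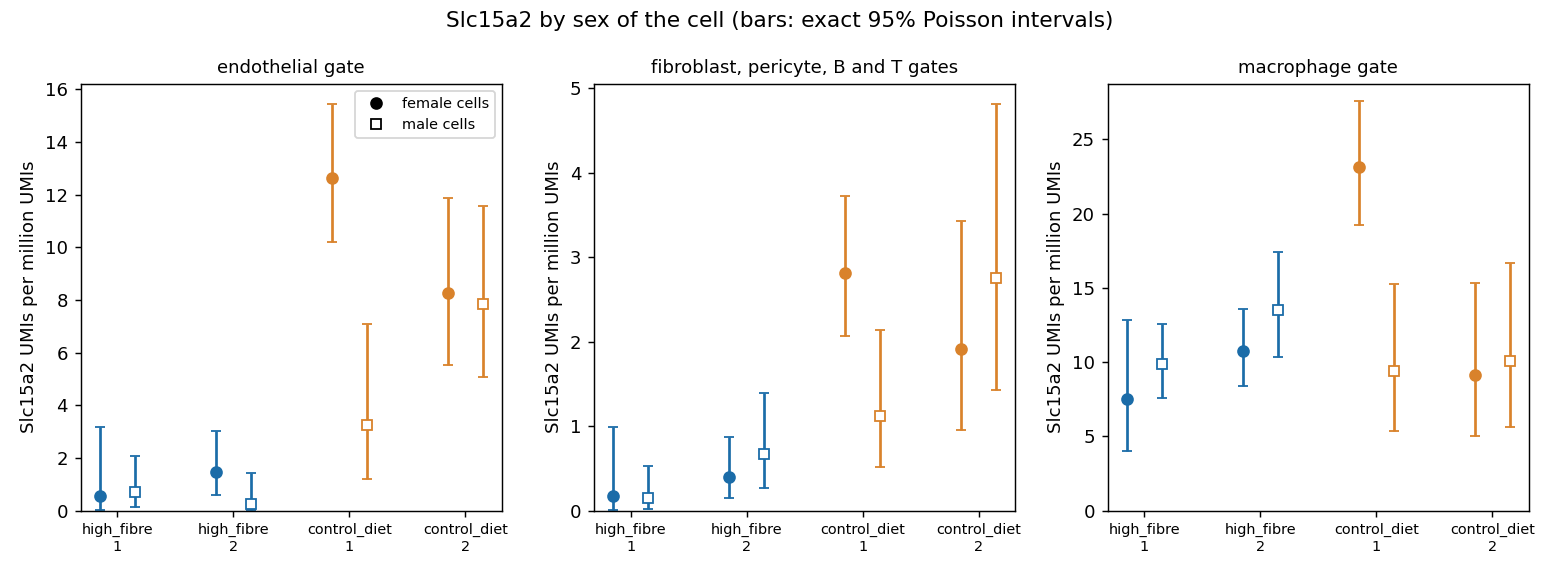
Slc15a2 level in CPM (UMIs per 1e6 UMIs) (y axis, linear from 0) in female cells (filled circles) and male cells (open squares) of each library (x axis; high_fibre blue, control_diet orange) in the endothelial gate, in the fibroblast, pericyte, B and T gates together, and in the macrophage gate; bars are exact 95% Poisson intervals of the count. In endothelium every high_fibre point lies below every control_diet point, and in control_diet 1 the female point (12.6) lies above the male point (3.25).

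Slc15a3, the PHT2 transporter of myeloid endosomes, was highest in macrophages of these hearts, and its diet difference there did not pass the test. The macrophage gate held 80.6% of its 5657 UMIs. Its level there was 152 and 95.8 CPM in high_fibre 1 and 2, against 124 and 171 CPM in control_diet 1 and 2, and the groups overlapped. The log2 fold of high_fibre over control_diet was -0.22 (SE 0.349, adjusted p = 1.00, edgeR with Benjamini-Hochberg adjustment over 11461 genes). Leaving out 1 library at a time moved it between -0.65 and 0.12. The libraries of 1 diet differed from each other by more than the diets did, with means of 124 ± 39.7 CPM in high_fibre and 147 ± 32.9 CPM in control_diet (SD, n = 2 each). In that gate edgeR called 0 genes (0%) at an adjusted p under 0.05, with 459 at an unadjusted p under 0.05 and 2 by DESeq2. A UMI of Slc15a3 was found in 57.1% and 47.8% of macrophages in high_fibre 1 and 2, against 52.9% and 64.6% in control_diet 1 and 2. Single macrophages held up to 23 and 14 UMIs in high_fibre 1 and 2, and up to 14 and 26 in control_diet 1 and 2.

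Macrophage clusters differed in Slc15a3, which is given with no test because the clusters were made from the same counts. In cluster c5, led by Il1b, Ccl4 and the MHC class II gene H2-Eb1, the level was 239 and 168 CPM in high_fibre 1 and 2, against 196 and 312 CPM in control_diet 1 and 2. In cluster c2, led by Folr2, F13a1 and Ccl24, it was 93.1 and 74.7 CPM in high_fibre 1 and 2, against 78.5 and 111 CPM in control_diet 1 and 2. In each library c5 stood above c2, and in each of these clusters the diets overlapped. Cluster c14 (508 cells, led by Cma1 and Mcpt4), with 63.8% of its cells in the macrophage gate, had a median of only 680.5 UMIs per cell. It held 63.8 and 70.3 CPM in high_fibre 1 and 2, against 10.7 and 16.1 CPM in control_diet 1 and 2. These levels came from 11 and 12 UMIs in high_fibre 1 and 2, and 1 and 1 in control_diet 1 and 2. Monocytes or dendritic cells (c20) held 66.3 and 69.9 CPM in high_fibre 1 and 2, against 70.0 and 103 CPM in control_diet 1 and 2. Neutrophils (c25) held 91.1 and 131 CPM in high_fibre 1 and 2, against 92.6 and 130 CPM in control_diet 1 and 2, from 5 to 46 UMIs. In high_fibre 2 they stood above the whole macrophage gate (95.8 CPM). Slc15a2 was lower in c5 than in c2 in 3 of 4 libraries. It had 10.7 and 12.7 CPM in c2 of high_fibre 1 and 2, against 22.3 and 12.5 CPM in control_diet 1 and 2. In c5 Slc15a2 stood at 12.4 and 6.63 CPM in high_fibre 1 and 2, against 17.0 and 8.77 CPM in control_diet 1 and 2.

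Among the other gates the order of Slc15a3 levels was pericytes, B cells, endothelium and, last, fibroblasts and T cells. Pericytes held 19.6 and 19.6 CPM in high_fibre 1 and 2, against 21.0 and 27.3 CPM in control_diet 1 and 2. B cells held 10.4 and 9.21 CPM in high_fibre 1 and 2, against 13.8 and 23.4 CPM in control_diet 1 and 2, a range that overlapped pericytes above and endothelium below. The high_fibre libraries were the lower ones in both gates, as for 16% of genes tested in pericytes and 14.9% in B cells, and neither difference passed the test (log2 -0.26 with SE 0.314 and -0.69 with SE 0.512, adjusted p = 0.999 and 1.00, edgeR). Endothelial cells held 9.66 and 7.33 CPM in high_fibre 1 and 2, against 11.5 and 11.4 CPM in control_diet 1 and 2 (log2 -0.45, SE 0.203). The high_fibre libraries were again the lower ones with no overlap, as for 16.7% of genes tested there. At the share estimated from C1qb and C1qc, macrophage RNA would carry 0.488 and 0.488 CPM of Slc15a3 into endothelium in high_fibre 1 and 2. In control_diet 1 and 2 it would carry 0.214 and 0.305 CPM. That share may be too low, as said above, and does not cover monocytes or neutrophils. The part of carried RNA was not tested. Fibroblasts held 2.92 and 1.78 CPM in high_fibre 1 and 2, against 2.33 and 3.57 CPM in control_diet 1 and 2 (log2 -0.27, SE 0.339, adjusted p = 0.977, edgeR, in a gate with 0.0223% of genes called). T cells gave 1 and 4 UMIs in high_fibre 1 and 2 and 0 and 0 in control_diet 1 and 2, and the gene was too low there to be tested.

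Slc15a4, the PHT1 transporter that serves endosomal Toll-like receptors, was highest in B cells and its diet difference passed the test in none of the gates where it was tested. In B cells it had 70.0 and 88.6 CPM in high_fibre 1 and 2, against 65.5 and 70.2 CPM in control_diet 1 and 2. The log2 fold there was 0.26 (SE 0.253, adjusted p = 1.00, edgeR), beside 0.0697% of genes called in that gate. Macrophages followed with 37.6 and 36.9 CPM in high_fibre 1 and 2, against 37.6 and 43.1 CPM in control_diet 1 and 2 (log2 -0.10, SE 0.124, adjusted p = 1.00, edgeR). The B-cell and macrophage ranges did not overlap, and both lay above the other gates in every library. A UMI was found in 23.9% and 23.7% of B cells in high_fibre 1 and 2, against 22.7% and 24.6% in control_diet 1 and 2, at lower median depths (3382 to 4593 UMIs) than in macrophages. The macrophage shares, 29.0% and 30.4% in high_fibre 1 and 2 and 27.9% and 38.9% in control_diet 1 and 2, were above the B-cell ones although the level was lower. After thinning to 2000 UMIs, which left out 59 and 98 B cells in high_fibre 1 and 2 and 12 and 19 in control_diet 1 and 2, the B-cell shares were 13.5% and 20.3% in high_fibre 1 and 2, against 10.3% and 16.0% in control_diet 1 and 2. The thinned macrophage shares were 7.67% and 7.17% in high_fibre 1 and 2, against 6.95% and 7.25% in control_diet 1 and 2, so at equal depth the order followed the levels.

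The remaining gates held Slc15a4 at 9.56 to 18.8 CPM. Fibroblasts had 15.3 and 15.8 CPM in high_fibre 1 and 2, against 15.7 and 14.0 CPM in control_diet 1 and 2 (log2 0.07, SE 0.117, adjusted p = 0.979, edgeR). Endothelial cells had 10.4 and 10.8 CPM in high_fibre 1 and 2, against 10.9 and 10.1 CPM in control_diet 1 and 2 (log2 0.01, SE 0.179). Fibroblasts and endothelium did not overlap, and T cells and pericytes overlapped both. Pericytes had 18.8 and 14.7 CPM in high_fibre 1 and 2, against 13.7 and 9.56 CPM in control_diet 1 and 2, so that the high_fibre libraries were the higher ones, as for 16.4% of genes tested there, and the difference did not pass the test (log2 0.48, SE 0.388, adjusted p = 0.999, edgeR, with 0.0431% of genes called). T cells had 17.8 and 10.0 CPM in high_fibre 1 and 2, against 14.2 and 16.7 CPM in control_diet 1 and 2, from 4 to 14 UMIs a library (log2 -0.06, SE 0.624, adjusted p = 1.00, edgeR, with 0.233% of genes called). Monocytes or dendritic cells (c20) stood between macrophages and B cells in 3 of 4 libraries, with 59.6 and 50.3 CPM in high_fibre 1 and 2, against 62.1 and 34.2 CPM in control_diet 1 and 2, the last from 7 UMIs.

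**Figure D4:**
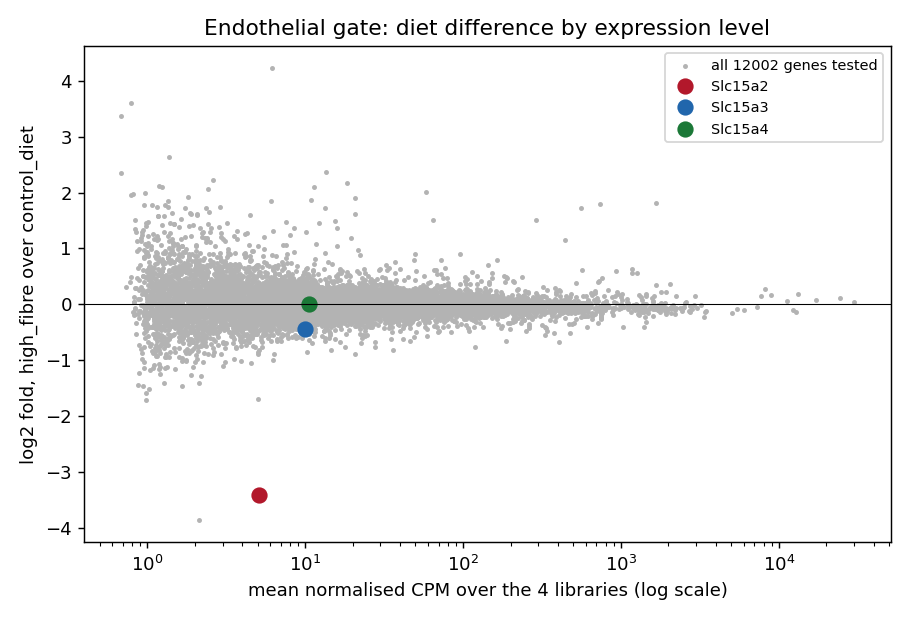
Fitted log2 fold of high_fibre over control_diet (y axis) against mean normalised CPM over the 4 libraries (x axis, log scale) for the 12002 genes tested in the endothelial gate (grey), with Slc15a2, Slc15a3 and Slc15a4 marked. Slc15a2 lies at -3.41, Slc15a3 at -0.45 and Slc15a4 at 0.01.

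The genes most like each transporter were ranked by Pearson's r of log2(CPM + 1) over 24 points, the 6 gates in 4 libraries, among 12899 genes with at least 200 UMIs. The points share libraries and depth, and r is given as a description. For Slc15a4 they were Bank1 (a B-cell scaffold protein), Gm31243, March1 (a ubiquitin ligase acting on MHC class II), Hepacam2 and Cd180 (a Toll-like receptor homologue of B cells), each with r of 0.96. For Slc15a3 they were Ehd4 (an endocytic ATPase), Serinc3, Vamp8 (an endosomal fusion protein), M6pr (a mannose 6-phosphate receptor) and Cdc42, with r of 0.95 to 0.92. For Slc15a2 the values were lower, from 0.72 for Aup1 through Ints12, Brd7 and Trmt1 to 0.68 for Slc25a11 (the mitochondrial oxoglutarate carrier). Many of its points outside macrophages rest on few UMIs, and the reason for the lower values was not tested. Between the transporters themselves r was 0.43 for Slc15a2 and Slc15a3, 0.41 for Slc15a2 and Slc15a4, and 0.40 for Slc15a3 and Slc15a4.

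Genes that work around these transporters were read from 5 lists: endosomal sensors and the NOD pathway, lysosomal amino acid transport and mTORC1 docking, proton pumps and exchangers, peptidases of small peptides, and amino acid uptake at the plasma membrane. None of their genes passed the test in any gate. Over the 6 gates edgeR made 0 calls in 466 tests of list genes, and DESeq2 made 0. By edgeR 21 of the tests (4.51%) had an unadjusted p under 0.05, beside 4.93% over all genes and gates. The most for 1 list in 1 gate was 5 of 19 uptake genes in fibroblasts, where 860 of 13466 genes had such a p. In the endothelial gate, where 0.075% of all genes were called, 10 of 17 tested sensor and NOD genes, 12 of 22 lysosomal genes, 9 of 19 pump genes, 10 of 14 peptidases and 7 of 14 uptake genes lay above a log2 fold of 0. Their median log2 folds were 0.04, 0.01, -0.01, 0.14 and -0.03, beside a median of 0.00 over all genes tested. In macrophages the counts above 0 were 8 of 22, 9 of 23, 10 of 19, 6 of 15 and 8 of 14, with medians of -0.08, -0.04, 0.02, -0.03 and 0.04, beside 0.00.

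For the most abundant list genes, levels are given by diet. In macrophages Unc93b1, the chaperone that delivers endosomal Toll-like receptors, stood at 439 ± 12.9 CPM in high_fibre and 507 ± 16.3 CPM in control_diet (SD, n = 2 each; log2 -0.21, SE 0.099, adjusted p = 1.00, edgeR). Irf5, the transcription factor reached through Slc15a4 and TASL, stood at 102 ± 13.1 CPM in high_fibre and 106 ± 3.37 CPM in control_diet. The lysosomal membrane protein Lamp1 had 910 ± 43.1 CPM in high_fibre and 933 ± 34.3 CPM in control_diet, and the proton pump subunit Atp6v0b had 455 ± 34.5 CPM in high_fibre and 478 ± 42.0 CPM in control_diet. The prolidase gene Pepd, which splits proline dipeptides, had 143 ± 2.93 CPM in high_fibre and 170 ± 10.3 CPM in control_diet (log2 -0.25, SE 0.101, adjusted p = 1.00, edgeR). In endothelium the scaffold gene Slc9a3r2 had 1179 ± 11.5 CPM in high_fibre and 1264 ± 3.39 CPM in control_diet. The taurine transporter Slc6a6 had 449 ± 11.1 CPM in high_fibre and 478 ± 59.0 CPM in control_diet, and the aminopeptidase Lnpep had 88.1 ± 0.08 CPM in high_fibre and 75.2 ± 0.40 CPM in control_diet (log2 0.23, SE 0.095, adjusted p = 0.816, edgeR). The glutamine transporter gene Slc38a2 varied widely between libraries, at 214 ± 80.8 CPM in high_fibre and 214 ± 68.9 CPM in control_diet in macrophages, and 205 ± 57.9 CPM in high_fibre and 189 ± 15.5 CPM in control_diet in endothelium. The diets lay apart by more than the spread of their libraries for Unc93b1, Pepd, Slc9a3r2 and Lnpep. The same held for the peptidase Tpp1 in macrophages, at 148 ± 6.09 CPM in high_fibre and 169 ± 3.18 CPM in control_diet. Groups apart were common among all genes. Of 11461 tested in macrophages, high_fibre was lower with no overlap in 1984 and higher in 1807. Of 12002 tested in endothelium, it was lower in 2008 and higher in 2083. None of the list genes passed the test, and a p that misses the threshold does not show that the diets gave equal levels.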

How the data were processed

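Single-cell RNA was measured in 4 heart libraries. The authors deposited whole-number UMI counts per gene and barcode, made with Cell Ranger 3.1.0 on mm10 per the submitters' processing notes; every deposited barcode held at least 500 UMIs. Barcodes with at least 250 genes and at most 20% mitochondrial UMIs were kept, and the top 0.8% per 1000 barcodes by simulated-doublet score were removed (2.36% to 7.23% of barcodes). Gates needed 2 UMIs of Pecam1 plus Cdh5 (Cdh5 at least 1), 5 of Col1a1 plus Dcn, 3 of C1qa, 2 of Kcnj8 plus Vtn, 2 of Cd79a or 1 of Cd3e, and cells passing several were set aside. Clusters came from Leiden at resolution 1 (scanpy 1.11.5) and were named by markers. A cell was female with Xist and no Y-linked UMI, male with the reverse. Counts were summed per library and gate and tested with edgeR 4.0.16 (quasi-likelihood, TMM, filterByExpr minimum count 10, Benjamini-Hochberg, threshold 0.05); SE is the log2 fold over the root of F. Of 6 gates, Slc15a2 passed the count filter in 4, Slc15a3 in 5 and Slc15a4 in 6. Alternatives were DESeq2 1.42.0, no filter, a replicate block, each library left out, other gates, doublets kept, cluster classes and, chosen after seeing the data, no shared barcodes and single sexes. The fit was checked on simulated data. The members and gene lists were chosen with earlier results of these data known. Named genes are the transporters, the 5 most correlated genes of each, and called or else the 2 most abundant list genes of a gate. The endothelial Slc15a2 level rests on 17 UMIs in high_fibre and 178 in control_diet, and a count of 0 allows up to 3 UMIs.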

Additional observations from a re-analysis of the deposited data

How the results depend on the processing

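The Slc15a2 log2 fold in endothelium moved by less than its spread between libraries (0.371) in the 14 alternatives run. It was -3.39 with a replicate block, and leaving out 1 library gave -3.63 to -3.24. The Slc15a3 macrophage fold was not called under any alternative (-0.25 with the block; -0.65 to 0.12 without 1 library, the sign turning without high_fibre 2). The Slc15a4 macrophage fold was not called either (-0.09 with the block; -0.17 to -0.02 without 1 library) and turned to 0.016 in female cells; the causes were not tested. Repeat numbers pair no samples in the labels; deviations of same-numbered libraries correlated at 0.045 to 0.241.

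Counts of called genes, the background of these results, depended strongly on the processing. Against 9 in endothelium, 3 in fibroblasts, 0 in macrophages, 4 in pericytes, 5 in B cells and 14 in T cells, DESeq2 called 16, 33, 2, 2, 1 and 6 in that order of gates. With no low-count filter there were 134, 283, 56, 19, 20 and 46, and with the replicate block 12, 23, 18, 35, 38 and 26. Leaving out 1 library gave 35 to 163, 0 to 234, 0 to 53, 14 to 42, 5 to 39 and 15 to 35. Cells of 2 gates kept in both gave 4 in endothelium, 1 in fibroblasts, 0 in B and 2 in T cells. Doubled gate minimums gave 1 in fibroblasts, 2 in B and 8 in T cells. Kept doublets gave 51 in endothelium, 8 in pericytes, 3 in B and 6 in T cells, and cluster classes 22 in endothelium, 5 in fibroblasts, 0 in pericytes, 2 in B and 3 in T cells. Without shared barcodes 2 were called in B cells. The causes were not tested.

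As a mean over cells in place of summed UMIs, Slc15a2 in endothelium was 1.33 per 1e6 UMIs in high_fibre and 11.4 in control_diet, and Slc15a4 in B cells 94.2 in high_fibre and 79.6 in control_diet. Low counts limit every Slc15a2 value outside macrophages, and 2 libraries per group limit all folds.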

Other observations

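Genes near Slc15a2 were read after its values were known, to see whether they moved with it. Of 45 annotated genes within 500 kb, 20 are counted in the files and 4 others passed the count filter in endothelium. Cd86, a costimulatory receptor of antigen-presenting cells, stood at 1.29 CPM in high_fibre and 0.557 CPM in control_diet there (log2 1.24, SE 0.596, adjusted p = 0.887, edgeR). Golgb1, a Golgi matrix protein, stood at 74.4 CPM in high_fibre and 81.9 CPM in control_diet (log2 -0.14, SE 0.100). Hcls1, a leukocyte cortactin relative, and Iqcb1, a ciliary protein, had log2 folds of -0.17 and 0.06. None of the 6 neighbours tested in any gate was called by edgeR. Of all genes tested, between 0% in macrophages and 0.233% in T cells were called, so this count says little about the neighbours.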
